A study of Homo sapiens with 4 samples.

Results

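The DNAJ genes encode the J proteins, also called HSP40 proteins. They were taken as every protein-coding gene whose name begins with DNAJA, DNAJB or DNAJC, which gave 45 of the 57820 genes in the count tables: 4 of subfamily A, 12 of subfamily B and 29 of subfamily C. RNA came from SY5Y cells (SH-SY5Y), an established human neuroblastoma line without MYCN amplification. The cells were kept for 12 h with SGSS05-NS at 3 µM or with the solvent DMSO, with 2 libraries of each, and the series title writes the compound as SGSS05-NS3, a covalent inhibitor of the histone methyltransferase SETD8 (KMT5A). The study reports that SGSS05-NS3 also inhibited other protein methyltransferases at micromolar concentrations, though SETD8 most strongly. The comparison asks how the family responded to the compound in this 1 line, at 1 dose and 1 time, and no second line, dose or time was analysed here. The labels and the study's methods do not state the same dose for this line, and the label's value is the one printed. Levels are given as CPM, fragments scaled to a common library size after TMM normalization. A change was called at an adjusted p under 0.001 (edgeR, quasi-likelihood test, p-values adjusted by Benjamini-Hochberg across the 16468 tested genes). The study describes the replicates as independent, and with 2 of each the test borrows its estimate of spread from all genes.

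A J protein hands unfolded or aggregated clients to an HSP70 chaperone and, through its J domain, speeds up the hydrolysis of ATP that closes HSP70 on the client. Subfamilies A and B hold mostly general folding helpers of the cytosol and nucleus, together with a few members of the endoplasmic reticulum (ER) and mitochondria. Subfamily C members share little beyond the J domain, which brings HSP70 to a fixed place such as the ribosome, the mitochondrial import motor or a clathrin-coated vesicle. Transcription of some members is raised by the heat shock factor HSF1 when cytosolic proteins unfold, and of others by XBP1, ATF6 or ATF4 when the ER is under stress.

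Of the 45 members, 37 had enough fragments to be tested. In SGSS05-NS treated cells 8 members rose and none fell, a share of 21.6% of the tested members beside the 6.37% of all tested genes called higher and the 8.14% called lower. The 8 were DNAJB1, DNAJB4, DNAJB2, DNAJB9, DNAJC25, DNAJB5, DNAJC2 and DNAJA1. At the looser adjusted p under 0.05, 14 members were higher and 8 lower, against 22.6% and 23.7% of all genes. The 14 include DNAJC22, which was tested only because its treated libraries passed the filter, so that its DMSO level was bound to be the lower. Both treated libraries lay above both DMSO libraries for 21 of the 37, DNAJC22 among them, and below for 10, and the groups overlapped for 6. Among all tested genes these patterns held for 37.8% and 36.9%. The median log2 fold change of the 37 was 0.16, with a range of -0.54 to 3.48, and that of all tested genes was 0.01. Because these are bulk samples, a change in cell make-up cannot be told apart from a change in RNA per cell.

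The 4 libraries held between 21463105 and 25350204 fragments assigned to genes. Members made up 0.211% and 0.208% of them in DMSO and 0.293% and 0.318% upon SGSS05-NS treatment. The sympathetic neuroblast markers PHOX2A, HAND2, GATA3, ISL1 and DBH were all present at a mean of at least 108 CPM in both groups, and TH, the gene of tyrosine hydroxylase, was near absent with at most 2 fragments in any library. PHOX2A, HAND2 and GATA3 were called lower in treated cells, HAND2 with 603 and 615 CPM in DMSO and 402 and 293 CPM in treatment. Of the markers of other cell types, PTPRC (blood) had at most 1 fragment in any library, and EPCAM, COL1A1, COL1A2 and S100B stayed at or under a group mean of 2.98 CPM. PTPRC and S100B had too few fragments for a test, and none of the other 3 was called. COL1A2 had a log2 fold change of -2.24 (adjusted p = 0.003), EPCAM one of 0.97 (adjusted p = 0.012) and COL1A1 one of 0.41 (adjusted p = 0.29), and their part in the results on J proteins was not tested.

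**Figure D1:**
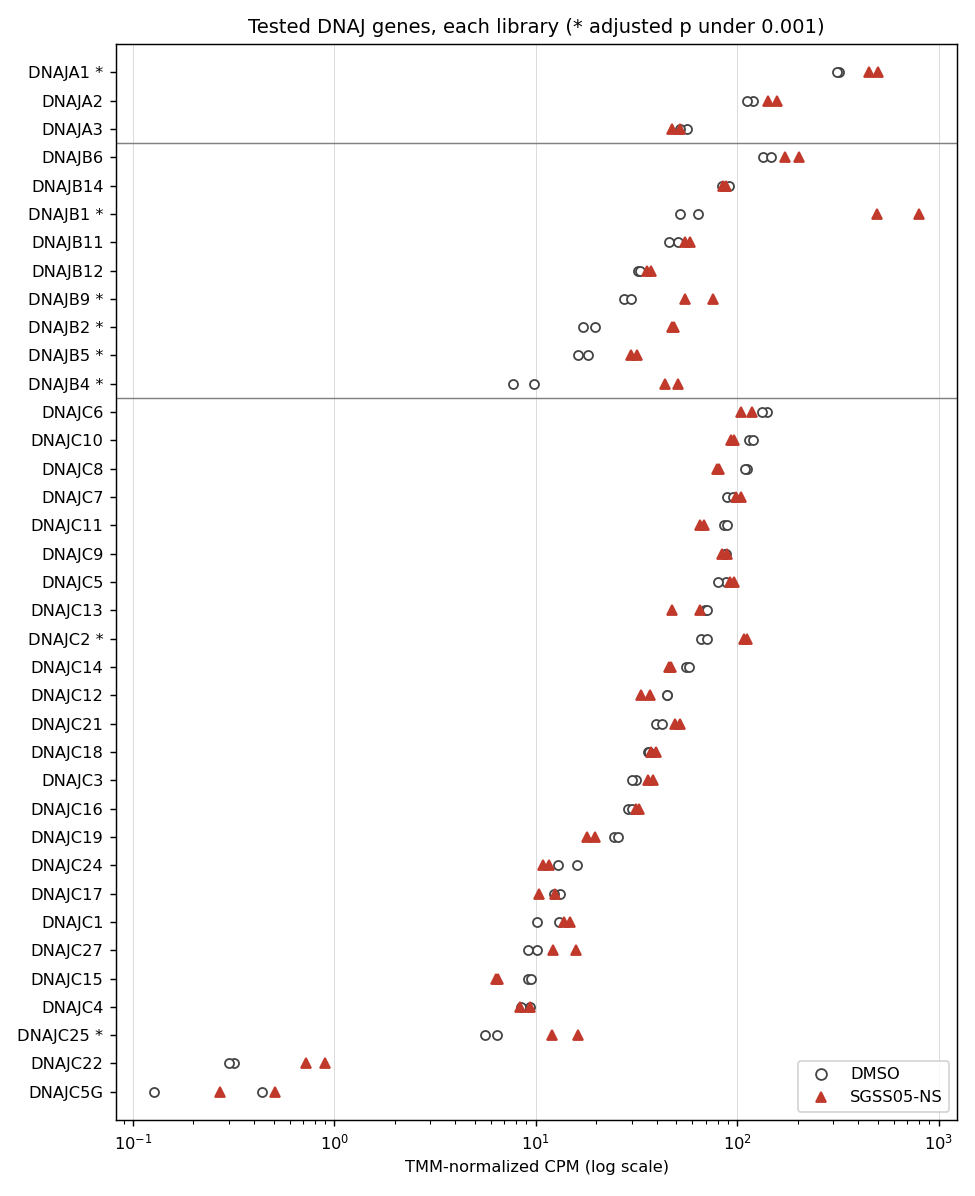
Level of each tested member in each library, as TMM-normalized CPM on a log scale. Open circles are the 2 DMSO libraries, filled triangles the 2 SGSS05-NS libraries, horizontal lines divide subfamilies A, B and C from top to bottom, and stars mark the 8 members past an adjusted p of 0.001. DNAJB1 moves from 64.2 and 52.1 CPM to 493 and 802 CPM.

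The most changed member was DNAJB1 (ENSG00000132002, chr19:14625581-14671203, minus strand, GRCh37), the main stress-inducible HSP40 of the cytosol. Its level was 64.2 and 52.1 CPM in the DMSO libraries and 493 and 802 CPM in the SGSS05-NS libraries, or 1611, 1217, 10939 and 18862 fragments. All treated values lay far above all DMSO values, although the 2 treated libraries also differed from each other. The mean rose from 58.1 ± 8.57 to 647 ± 219 CPM (SD, n = 2). On the log2 scale the fold change was 3.48 ± 0.198 (SE, adjusted p = 2.1e-07). DNAJB1 alone supplied 3.02% and 2.47% of all DNAJ fragments in DMSO and 17.4% and 24.9% upon treatment. Per kilobase of exon it ranked 13th and 17th of the 45 members in DMSO and 2nd in each treated library, behind DNAJA1.

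DNAJB4 (chr1:78444859-78483648, plus strand) is a close relative of DNAJB1 with the same cytosolic work. Its level was 9.76 and 7.75 CPM in DMSO and 43.8 and 51.0 CPM in treated cells, so that the groups stood well apart. The log2 fold change was 2.43 ± 0.139 (SE, adjusted p = 2.2e-07). Per kilobase of exon DNAJB4 moved from rank 30 and 32 to rank 11 in each treated library. The gene shares 78 exon bases with GIPC2 on its own strand, and fragments within such a stretch are not assigned to either gene.

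DNAJB2 (chr2:220144064-220151620, plus strand), a J protein rich in neurons that carries ubiquitin-binding motifs and steers clients to the proteasome, was at 19.8 and 17.1 CPM in DMSO and 48.4 and 47.3 CPM in treatment. Its log2 fold change of 1.37 ± 0.112 had an adjusted p of 2.8e-06, and the treated pair was closer together than the DMSO pair. DNAJB5 (chr9:34989638-34998897, plus strand), built like DNAJB1, was at 16.2 and 18.2 CPM in DMSO and 29.9 and 31.8 CPM in treatment (log2 fold change 0.84 ± 0.117, adjusted p = 1.4e-04). Both genes thus changed by much less than DNAJB1 and DNAJB4, but beyond the spread of their replicates.

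DNAJA1 (chr9:33025271-33039905, plus strand), a lipid-anchored general helper of cytosolic HSP70, was the most abundant member per length in every library. It reached 321 and 312 CPM in DMSO and 452 and 502 CPM in treatment, a log2 fold change of 0.59 ± 0.0961 (adjusted p = 4.2e-04). In DMSO its mean level per kilobase was 119 CPM, beside 38.2 for DNAJC8, 27.3 for DNAJC9, 23.5 for DNAJA2 and 7.10 for DNAJB1. The call for DNAJA1 was lost without DMSO replicate 2, where the log2 fold change was 0.55 and the adjusted p 0.0011. Annotation lists 6 pseudogenes of DNAJA1 and 2 of DNAJB1, and fragments that match several places equally well are not counted, so these levels may be too low.

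The other cytosolic members did not pass the threshold. DNAJB6, which holds back aggregation of polyglutamine proteins, was at 134 and 147 CPM in DMSO and 173 and 204 CPM in treatment (log2 fold change 0.42, adjusted p = 0.0068). DNAJA2, the nearest relative of DNAJA1, was at 120 and 112 CPM and then 142 and 157 CPM (0.36, adjusted p = 0.0096). For both genes the 2 groups did not overlap, but 37.8% of all tested genes also had both treated libraries above both DMSO libraries. DNAJC7, which links HSP70 and HSP90 through its TPR repeats, had a log2 fold change of 0.15 (adjusted p = 0.21). DNAJC12, a partner of the aromatic amino acid hydroxylases, had the opposite sign, with 45.0 and 45.1 CPM in DMSO and 36.9 and 33.4 CPM in treatment (-0.36, adjusted p = 0.012).

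Taking the subfamilies by count, 5 of the 9 tested members of B rose, 1 of the 3 of A and 2 of the 25 of C, and none fell in any. These are shares of 55.6%, 33.3% and 8% beside the 6.37% of all tested genes, to which that of C lies close. Their median log2 fold changes were 0.84, 0.36 and -0.00, beside 0.01 for all tested genes. The median of C changed sign with the scaling, to 0.03 under library size alone. The summed level of subfamily B was 441 and 440 CPM in DMSO and 1020 and 1390 CPM in treatment. That of subfamily C was 1190 CPM in each DMSO library and 1160 and 1120 CPM in treatment. Among the cytosolic members of A and B, all 7 tested had a positive fold change and were past an adjusted p of 0.05. Of these 7, 5 were past 0.001. Of all tested genes, 8404 of 16468 had a positive fold change and 22.6% were higher at 0.05. Of the cytosolic members of C, DNAJC12 was lower at 0.05 and DNAJC7 was not past it. The family as a whole summed to 2130 and 2110 CPM in DMSO and 2830 and 3220 CPM in treatment. Without the 8 called members the sums were 1600, 1600, 1580 and 1590 CPM, a set that the calls themselves define. No test of the difference between subfamilies was made.

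**Figure D2:**
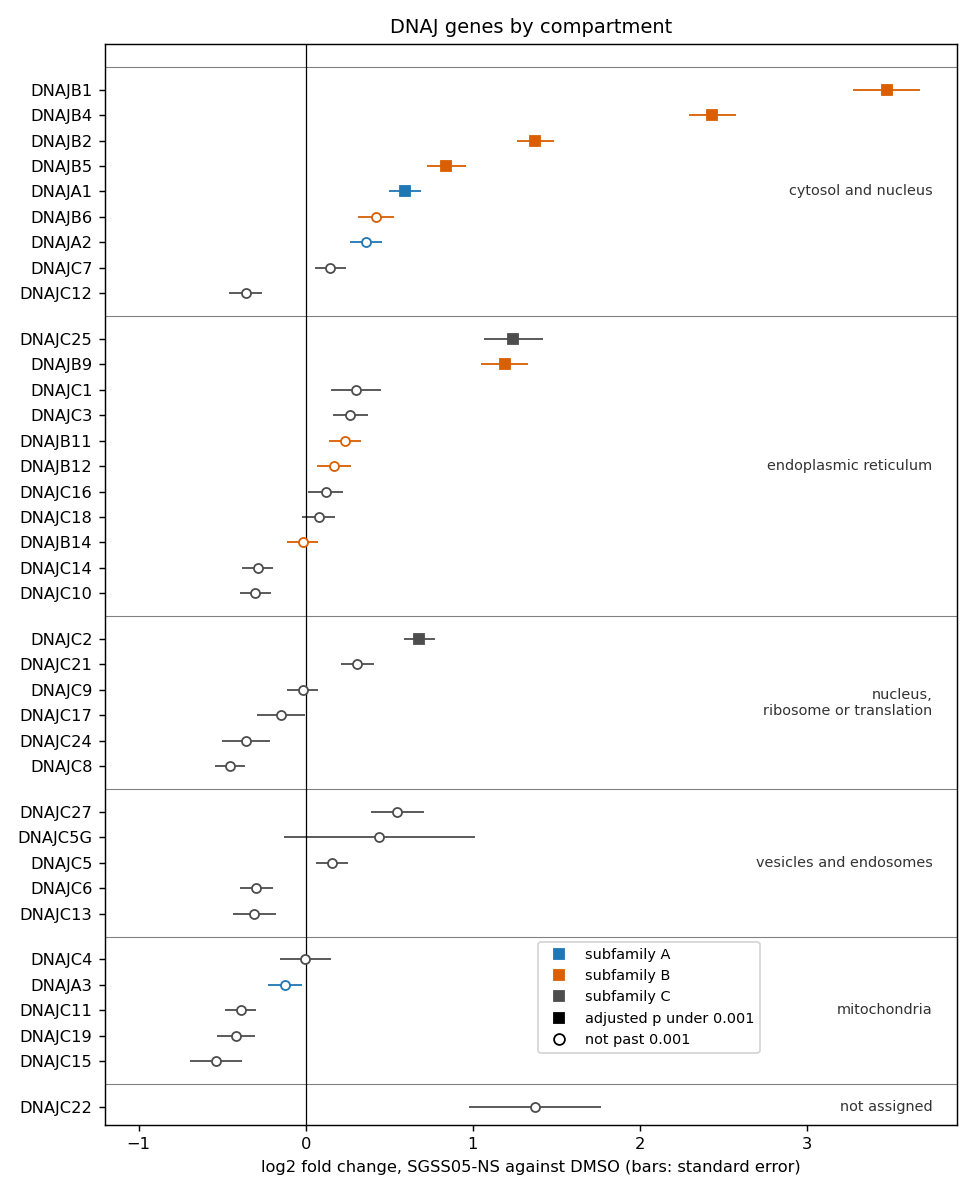
Log2 fold change (SGSS05-NS against DMSO) of the 37 tested members with the standard error as a bar, grouped by compartment. Colours give the subfamily, filled squares the 8 members past an adjusted p of 0.001 and open circles the rest. The cytosolic group runs from -0.36 to 3.48, and of the 5 mitochondrial members 4 lie below 0 and DNAJC4 lies at -0.00, with its sign depending on the scaling.

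The promoter sequence was searched for short motifs of the stress regulators, in RefSeq windows (GRCh38.p14) of 250 bases before to 50 bases after each annotated start. Windows matched 41 of the 45 members. The heat shock element, the letters read by HSF1, was taken as 3 units in a row: GAA, any 2 bases, TTC, any 2 bases and GAA, or the reverse complement. It was found for 2 members, DNAJA1 and DNAJB6, and for 0.608% of all genes with a window. The stretches around both matches are shown because they are the only members with these letters, with the match in capitals. In DNAJA1 (chr9:33025216-33025292, plus strand) it begins at position 3 and in DNAJB6 (chr7:157336813-157336945, plus strand) at position -131, counted from the start site as 0.
DNAJA1: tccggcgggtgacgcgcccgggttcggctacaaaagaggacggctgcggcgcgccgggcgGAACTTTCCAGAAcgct
DNAJB6: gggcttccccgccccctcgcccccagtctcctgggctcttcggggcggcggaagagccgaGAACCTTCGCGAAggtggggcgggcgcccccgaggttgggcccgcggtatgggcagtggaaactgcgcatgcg
DNAJA1 was called higher, and DNAJB6 was not past the threshold. The letters were in none of the windows of the other 7 called members, DNAJB1 and DNAJB4 included, which says nothing about sites elsewhere or sites that depart from these letters.

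A stretch from 1 of the 3 DNAJB1 windows is shown because this member changed most (GRCh38.p14, chr19:14518516-14518640, minus strand, ending before the start site). Its capitals mark CCACG on the opposite strand, part of the element through which the ER stress factors act. These 5 letters stood in 25 of the 41 members and in 42.1% of all genes, so their presence singles out little. The rest of this DNAJB1 window is not shown. It holds the letters gaaggttctggag, which depart from the searched heat shock element only in the last unit, gag in place of gaa. Heat shock elements with a mismatch were not searched for, so how common such letters are in other windows was not counted.
DNAJB1: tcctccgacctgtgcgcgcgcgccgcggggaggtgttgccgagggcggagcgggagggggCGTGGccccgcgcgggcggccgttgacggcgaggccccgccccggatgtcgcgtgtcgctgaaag

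In the ER group 2 of 11 tested members rose (18.2%) and none fell, beside 6.37% and 8.14% of all tested genes, with a median log2 fold change of 0.17. DNAJB9 (chr7:108210311-108215294, plus strand), also known as ERdj4, sits in the ER lumen and holds the stress sensor IRE1 inactive. It was at 27.6 and 29.8 CPM in DMSO and 55.0 and 75.8 CPM in treated cells. The groups did not overlap, and the log2 fold change was 1.19 ± 0.138 (adjusted p = 3.8e-05). DNAJC25 (chr9:114393614-114416631, plus strand), a member with a predicted membrane span, was at 5.58 and 6.42 CPM in DMSO and 12.1 and 16.2 CPM in treatment (1.24 ± 0.175, adjusted p = 1.6e-04). This gene shares 358 exon bases with the read-through gene DNAJC25-GNG10 on the same strand. Fragments of the shared stretch are assigned to neither, so the part of the read-through in the change of DNAJC25 was not tested.

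The DNAJB9 promoter (chr7:108569740-108569891, plus strand) carried CCACG at 2 places on opposite strands, at positions -74 and -47. The DNAJC25 promoter (chr9:111631256-111631353, plus strand) carried TGACGTG, another element of the ER stress response, at position -18. TGACGTG was found for 3 members and for 2.4% of all genes, and the 3 were DNAJC10, DNAJC25 and the read-through gene, whose window is the same one. Both stretches are shown with the matches in capitals.
DNAJB9: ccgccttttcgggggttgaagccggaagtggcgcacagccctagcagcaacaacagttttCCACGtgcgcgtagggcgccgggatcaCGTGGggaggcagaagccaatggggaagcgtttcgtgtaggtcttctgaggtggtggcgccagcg
DNAJC25: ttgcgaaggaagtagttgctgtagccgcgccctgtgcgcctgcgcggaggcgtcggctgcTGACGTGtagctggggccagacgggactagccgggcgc
DNAJC10 was lower at the looser threshold, so that the letters stood in members of both directions. The longer ER stress element (CCAAT, 9 bases, CCACG), searched after the first motifs had been seen, was in 0 of the 41 members and in 0.0916% of all genes. The ATF4 motif TGATGNAA stood in 1 member, DNAJA4, and in 4.46% of all genes. Each motif was searched on both strands, and a match describes letters only.

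The other lumenal J proteins changed less than DNAJB9. DNAJB11 (ERdj3), which binds unfolded chains with the ER HSP70, was at 46.0 and 50.8 CPM in DMSO and 55.4 and 58.5 CPM in treatment (log2 fold change 0.24, adjusted p = 0.067). DNAJC3, an inhibitor of the kinase PERK that also serves as a chaperone, was at 31.5 and 30.2 CPM and then 38.1 and 36.3 CPM (0.27, adjusted p = 0.048). DNAJC1 had a log2 fold change of 0.30 (adjusted p = 0.12). DNAJC10 (ERdj5), a disulphide reductase, was at 114 and 120 CPM in DMSO and 93.1 and 96.6 CPM in treatment (-0.30, adjusted p = 0.018). Of these 4 genes DNAJC10 alone had a negative fold change. The 4 members that turn their J domain to the cytosol, DNAJB12, DNAJB14, DNAJC14 and DNAJC18, had log2 fold changes between -0.29 and 0.17. None of them was called, beside 6.37% of all tested genes called higher and 8.14% called lower. DNAJB12 and DNAJB14 act in the disposal of misfolded membrane proteins. The summed level of the ER group was 481 and 488 CPM in DMSO and 509 and 536 CPM in treatment.

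Of the 5 tested members assigned to mitochondria none passed 0.001, beside 6.37% of all tested genes called higher and 8.14% called lower. The median log2 fold change of the 5 was -0.39. DNAJC11, DNAJC15, DNAJC19 and DNAJA3 had a fold change below 0 under every alternative run, while DNAJC4 lay near 0 and turned to 0.03 under library size alone. DNAJC15 and DNAJC19 belong to the motor that pulls proteins through the inner membrane. DNAJC15 was at 9.21 and 9.46 CPM in DMSO and 6.53 and 6.33 CPM in treatment (-0.54, adjusted p = 0.014), and DNAJC19 was at 24.6 and 25.7 CPM and then 17.9 and 19.8 CPM (-0.42, adjusted p = 0.012). DNAJC11, linked to the complex that shapes the cristae, was at 86.5 and 89.4 CPM and then 65.8 and 68.5 CPM (-0.39, adjusted p = 0.0046). These 3 were the mitochondrial members lower at the looser threshold, and in each the groups did not overlap. Of all tested genes 23.7% were lower at that threshold, and 36.9% had both treated libraries below both DMSO libraries. DNAJA3, the J protein of the matrix HSP70, had a log2 fold change of -0.12 (adjusted p = 0.33), and DNAJC4 one of -0.00 (adjusted p = 0.99). The group summed to 186 CPM in each DMSO library and to 151 and 152 CPM in treatment. DNAJC19 has 9 annotated pseudogenes, and DNAJC4 shares 297 exon bases with NUDT22 on its own strand.

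**Figure D3:**
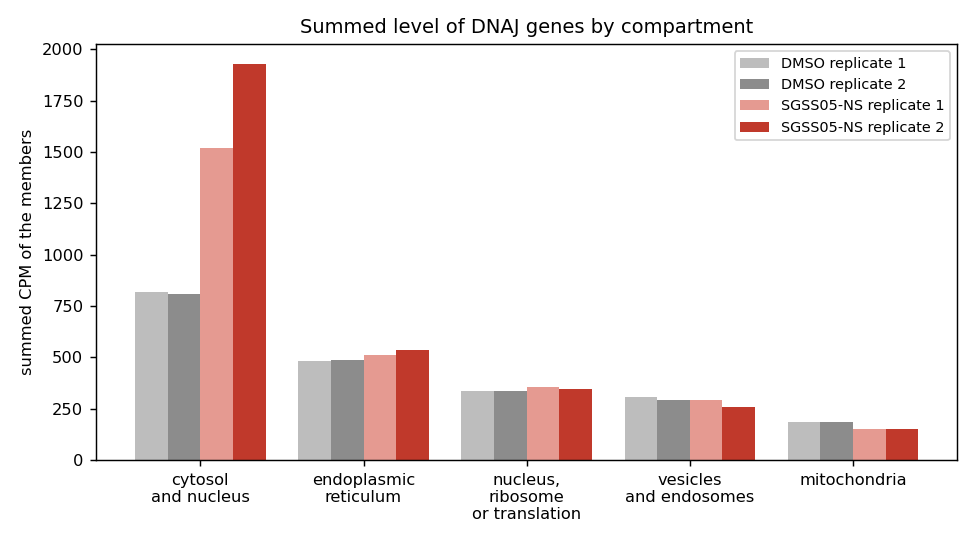
Summed TMM-normalized CPM of the members of each compartment, one bar per library, from 0. The cytosolic group stands at 819 and 807 CPM in DMSO and 1520 and 1930 CPM upon SGSS05-NS treatment, and the mitochondrial group at 186, 186, 151 and 152 CPM.

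Of the 6 members that work in the nucleus, at the ribosome or on translation factors, 1 rose (16.7%) and none fell. Of all tested genes 6.37% rose and 8.14% fell. DNAJC2 (chr7:102952736-102985277, minus strand), also known as MPP11 or ZRF1, forms the ribosome-associated complex with HSPA14 and helps chains that leave the ribosome. It was at 66.5 and 70.5 CPM in DMSO and 112 and 108 CPM in treatment, well outside the spread of either pair (0.68 ± 0.092, adjusted p = 1.1e-04). Its partner HSPA14, named after its value was seen, was at 70.1 and 65.2 CPM and then 92.2 and 97.3 CPM (0.49, adjusted p = 0.0014). DNAJC8, a splicing protein, was lower by the smallest adjusted p of any lower member, with 112 and 109 CPM in DMSO and 79.6 and 81.7 CPM in treatment (-0.45, adjusted p = 0.0017). DNAJC21, a factor of large ribosomal subunit maturation, had a log2 fold change of 0.31 (adjusted p = 0.022), and DNAJC24, which takes part in diphthamide synthesis on elongation factor 2, one of -0.36 (adjusted p = 0.063). DNAJC9, a histone chaperone, was at 87.2 and 88.3 CPM in DMSO and 89.5 and 83.8 CPM in treatment and overlapped between the groups. DNAJC17 overlapped as well (-0.15, adjusted p = 0.42).

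None of the 5 tested members of vesicles and endosomes passed the threshold, beside 6.37% of all tested genes called higher and 8.14% called lower. DNAJC6 (auxilin), which strips clathrin from vesicles in neurons, was at 141 and 133 CPM in DMSO and 119 and 104 CPM in treatment (log2 fold change -0.30, adjusted p = 0.028). DNAJC27, a small GTPase with a J domain, was at 9.13 and 10.1 CPM and then 12.2 and 15.9 CPM (0.55, adjusted p = 0.014). DNAJC5, the cysteine string protein of synaptic vesicles, was at 88.0 and 80.6 CPM and then 96.4 and 91.7 CPM (0.16, adjusted p = 0.19). DNAJC13, which acts on endosomal coats, was at 69.1 and 70.5 CPM and then 65.2 and 47.5 CPM (-0.31, adjusted p = 0.069), so the gap between its treated libraries was larger than that between the first of them and the DMSO libraries. DNAJC5G had between 3 and 12 fragments per library. The median of this group was 0.16 and turned to -0.17 without DMSO replicate 2 and to -0.09 without SGSS05-NS replicate 2.

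The 8 members without a test had at most 20 fragments over the 4 libraries together. No fragment was counted for DNAJA4, DNAJB7, DNAJC5B or DNAJC25-GNG10. In the order DMSO replicates 1 and 2 and SGSS05-NS replicates 1 and 2, DNAJB8 had 0, 0, 2 and 1 fragments, DNAJC30 had 0, 0, 0 and 1, DNAJC28 had 6, 1, 6 and 1, and DNAJB13 had 2, 2, 4 and 12. A change in DNAJB8, DNAJC30, DNAJC28 or DNAJB13 was not detectable at this depth. For DNAJC25-GNG10, 358 of its 1448 exon bases are shared with DNAJC25 and 1087 with GNG10 on the same strand, and fragments shared in this way are not assigned, so its 0 says nothing about its level. DNAJA4, a relative of DNAJA1, had no fragment in the column of its own strand, yet 56, 37, 99 and 86 in the column of the opposite strand, where annotation places 2 non-coding genes, so that its 0 may not be a measure of its level and the reason was not tested. DNAJC22 was tested only because its treated libraries passed the filter, with 8 and 7 fragments in DMSO and 20 and 17 in treatment (log2 fold change 1.37, adjusted p = 0.014).

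The HSP70 and HSP110 chaperones that J proteins serve, their exchange factors, the J proteins not named DNAJ and the stress regulators were followed as a list of 34 genes, of which 31 were tested. Of these 9 rose (29%) and 1 fell (3.23%), beside 6.37% and 8.14% of all tested genes, with a median log2 fold change of 0.37. HSPA6, a strictly inducible HSP70, had 1 and 0 fragments in DMSO and 6238 and 9408 in treatment. It was tested only because its treated libraries passed the filter, and 8 partners rose when every library had to hold at least 10 fragments. HSPA8, the constitutive HSP70, was at 2110 and 2000 CPM in DMSO and 3200 and 3650 CPM in treatment (0.74 ± 0.106, adjusted p = 1.7e-04). The group of each gene stood apart from its controls by more than the replicates differed. HSPH1, the HSP110 that works with DNAJB1 and HSPA8 to dissolve aggregates, was at 257 and 259 CPM and then 1010 and 898 CPM (1.89 ± 0.1, adjusted p = 1.3e-07). BAG3, an exchange factor that leads clients to autophagy, was at 7.45 and 7.79 CPM and then 56.7 and 70.3 CPM (3.06 ± 0.134, adjusted p = 2.1e-08). HSPA4L and BAG2 rose as well, with log2 fold changes of 1.42 and 0.87. HSPA1A, HSPA1B and HSPA1L had too few fragments for a test. HSPA1A had 1, 1, 6 and 22 fragments and HSPA1B 0, 0, 1 and 12. As near-identical copies they can lose fragments that match both, so these levels are uncertain, and the size of that loss was not tested.

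Among the regulators XBP1 and ATF4 rose and ATF6 fell. XBP1, which switches on ER chaperone genes, was at 60.6 and 65.3 CPM in DMSO and 150 and 176 CPM in treatment (1.37 ± 0.106, adjusted p = 1.8e-06), and ATF4, the factor of the integrated stress response, had a log2 fold change of 0.69 (adjusted p = 1.7e-04). ATF6, named after its value was seen as the only fallen gene of the list, was at 89.8 and 99.6 CPM and then 62.8 and 66.9 CPM (-0.55 ± 0.097, adjusted p = 7.8e-04). Its call was lost without SGSS05-NS replicate 1 and with scaling by library size alone. HSF1, also named after its value was seen, had a log2 fold change of 0.35 (adjusted p = 0.018). The HSP70s of the organelles, also named after their values were seen, did not pass the threshold. HSPA5 (BiP) of the ER was at 135 and 199 CPM in DMSO and 198 and 244 CPM in treatment, so that the groups overlapped (0.40, adjusted p = 0.053). HSPA9 of the mitochondrial matrix was at 328 and 340 CPM and then 431 and 430 CPM (0.37, adjusted p = 0.0062), and its exchange factors GRPEL1 and GRPEL2 had log2 fold changes of 0.48 each, the sign opposite to DNAJC11, DNAJC15, DNAJC19 and DNAJA3.

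Length on the genome moved with the fold change, among the members as among all genes. The 8 called members were between 4.98 and 45.6 kb long, and of the 12 tested members over 50 kb none was called higher or lower, beside 2.8% and 17.3% of all genes of that length. The median log2 fold change was 0.44 for the 11 members under 20 kb, 0.16 for the 14 between 20 and 50 kb and -0.16 for those over 50 kb. Over all genes the same medians were 0.13, 0.11 and -0.22. Across the 37 members Spearman's rho was -0.39 and Pearson's r -0.22 on the log length, given as a description, since all points come from the same 4 libraries. The median length was 18.3 kb for the 7 tested cytosolic members of A and B and 31.0 kb for the 5 of mitochondria, and the part of length in the difference between these groups was not tested. The share of fragments that fell outside exons was 12.4% and 12.3% in DMSO and 16.1% and 15.3% in treated libraries.

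Treated libraries also differed in how far some called members moved. In SGSS05-NS replicate 2 against replicate 1, DNAJB1 stood at 802 against 493 CPM and DNAJB9 at 75.8 against 55.0 CPM. DNAJB2, DNAJB5 and DNAJC2 differed little between these libraries. The share of all tested genes with replicate 2 above replicate 1 was not counted. In all 8 called members both treated libraries lay above both DMSO libraries, which the calls themselves favour. Of all tested genes 37.8% showed this pattern. When single libraries were omitted, fold changes on the log2 scale ranged from 3.08 to 3.78 for DNAJB1, from 2.26 to 2.60 for DNAJB4 and from 0.94 to 1.39 for DNAJB9.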

How the data were processed

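RNA-seq of SY5Y cells treated for 12 h was analysed in 4 libraries, 2 per condition, grouped by the sample labels. Reads were trimmed by the authors (Trimmomatic 0.30) and aligned to hg19 (STAR 2.4.2a, GENCODE 19). The deposited values are raw STAR counts per gene in 3 columns: unstranded, forward and reverse. The labels name a TruSeq RNA kit and the methods its stranded form. The reverse-strand column was used. Rows that name no gene were left out: unmapped (5.9 to 7.68% of fragments), several places (14.3 to 15.4%), outside exons and ambiguous (2.32 to 2.58%).

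The counts were tested in R 4.3.3 using edgeR 4.0.16 (filterByExpr, TMM, quasi-likelihood test, Benjamini-Hochberg over all tested genes). The standard error is the log2 fold change divided by the square root of F. Names, types, positions and exon lengths came by identifier from GENCODE 44 on GRCh37 (55538 of 57820 matched), since GENCODE 19 itself was not used here. DNAJB3 is a pseudogene there and no member. Shared exon bases came from GENCODE 44 as well, and whether the GENCODE 19 models behind the counts overlap in the same way was not checked. Promoters came from RefSeq (GRCh38.p14), with different coordinates from GRCh37. The endothelial marker of the list was not analysed here, and the results of 2 other markers are not reported here.

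The members, compartments, partner list, markers and motifs were chosen from general knowledge with earlier results of these data known. Every member could be named, with each library's values for the called ones, and of the partners the called ones, at most 8 by smallest p. Scripts were tested on simulated data. Alternatives were the edgeR likelihood ratio test, DESeq2 1.42.0, limma 3.58.1 voom, other scalings, filters, thresholds, the unstranded column, a replicate block and each library left out. The pairs of replicates differed beyond sampling noise, so all libraries were kept.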

Additional observations from a re-analysis of the deposited data

Results flagged for a closer look

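The column of counts for the strand opposite to each gene was not used in any comparison, and 6 members had at least 10 fragments there in both SGSS05-NS libraries and at least 2 times the higher DMSO library after scaling. In the order DMSO replicates 1 and 2 and SGSS05-NS replicates 1 and 2, the fragments were 2, 1, 17 and 10 for DNAJB5, a ratio of the scaled means of 9.72. DNAJB12 had 10, 6, 24 and 60 (5.54), DNAJB2 had 6, 2, 19 and 20 (5.25), and DNAJB6 had 13, 4, 24 and 55 (4.96). DNAJB13, with few fragments on its own strand, had 8, 12, 37 and 47 (4.4), and DNAJC19 had 13, 9, 23 and 26 (2.37). Of the tested members 13.5% met this rule, beside 3.63% of all tested genes. Fragments of that column summed to 4.9% and 4.87% of those on the annotated strand in DMSO and to 5.32% and 5.31% in treatment. The annotation used shows an exon on the opposite strand for DNAJB13 and DNAJC19 and for none of the other 4. The counts are small and carry no test.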

How the results depend on the processing

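The 8 called members were fitted under 13 alternatives each, and of the 104 fold changes 103 kept direction and call and 1 lost the call, for DNAJA1 with a library left out. The number of members higher, 8, lay between 7 and 9 with a library left out and was 14 at an adjusted p under 0.05. The number lower, 0, became 1 under the likelihood ratio test, DESeq2 and the replicate block, 2 without a filter and at 0.01, and 8 at 0.05, and ran from 0 to 1 with a library left out. Of all genes, 1049 were higher and 1341 lower, against 2022 and 2267 under the likelihood ratio test, 2034 and 2570 without a filter, and 1759 and 2007 with the replicate block. The labels do not say whether equal replicate numbers mark a pair. The correlation of the deviations was 0.0456, and over 2 pairs it cannot settle this. Partner genes higher, 9, became 20 at 0.05 and 14 at 0.01 and ran from 8 to 13 with a library left out. Partner genes lower, 1, became 0 under library size alone, 2 without a filter and 3 at 0.05, and ran from 0 to 1. The median over the members was 0.19 under library size alone and 0.13 to 0.155 with a library left out. Without a filter the medians were 1.16 for subfamily B, 0.0495 for C, 0.69 for the cytosol and -0.151 for mitochondria. Without regard to strand they were 0.989 for B, 0.0628 for C, 0.69 for the cytosol, -0.334 for mitochondria, -0.107 for vesicles and -0.0112 for nucleus, ribosome and translation. With at least 10 fragments in every library the median for vesicles was -0.0574, and under library size alone that of C was 0.0279. Leaving out a library gave 0.797 to 1.11 for B, -0.0871 to 0.07 for C and -0.175 to 0.213 for vesicles. The median level per kilobase over the 45 members, 4.66 CPM in DMSO, was 6.58 with the longest transcript as length. The cause of these shifts was not tested. With every library kept, 72 of the fold changes of called members kept direction and call. All alternatives reuse the same libraries for members chosen by their call. With a library left out, 1 group holds 1 library, so a call kept or lost there says little. Genes with few fragments could not be compared.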
